A study of Sus scrofa with 39 samples.

Results

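The genes described here are the heat shock proteins and the DNAJ proteins of pig whole blood. They were taken as every gene of the count files whose Ensembl pig symbol begins with HSP or DNAJ, together with the regulators HSF1, HSF2, BAG1, BAG3 and HSPBP1; HSPG2, a matrix proteoglycan, was left out. The choice used symbols only and gave 67 members of 25880 genes. By family they were 9 HSP70 genes, 3 HSP110 genes, 3 HSP90 genes, the mitochondrial chaperonin pair HSPD1 and HSPE1, 5 small heat shock proteins, the HSP27-binding HSPBAP1, 4 DNAJA, 10 DNAJB and 25 DNAJC genes, and 5 regulators.

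The blood came from 39 preterm, formula-fed piglets of a study of necrotizing enterocolitis (NEC), in which parts of the immature intestine become inflamed and die. NEC was diagnosed at necropsy on day 5; no source used here gives the day of blood sampling, the breed or the age at delivery. There were 9 piglets with severe NEC (NEC_Severe, 5 male and 4 female), 11 with mild NEC (NEC_Mild, 4 male and 7 female) and 19 without NEC (CON, 11 male and 8 female), and no group carried a modified allele or received a test substance according to the labels. Batch 3 held 2 severe, 7 mild and 7 CON piglets, batch 2 held 4 severe and 5 CON piglets but no mild NEC, while batch 1 held 3 severe, 4 mild and 7 CON piglets. Of the 7 CON libraries of batch 3, 4 belong to a library series marked BKDL in the labels and the other 3 to the series FKDL. The FKDL series also holds all NEC libraries of batch 3 and all libraries of batch 2. Batch 1 held other series, H53GYCCXY for NEC_Mild replicates 3 and 4 and H53FNCCXY for the rest.

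HSP70 proteins bind unfolded stretches of other proteins and release them in a cycle driven by ATP. The DNAJ proteins, also called HSP40, bring clients to HSP70 and start its ATP hydrolysis, HSP110 proteins exchange its nucleotide, and HSP90 takes over partly folded clients such as steroid receptors and kinases. Under proteotoxic stress the transcription factor HSF1 raises the inducible members, while HSPA8 and HSP90AB1 are made at all times; related sets serve the endoplasmic reticulum and the mitochondria. In blood, maturing red cells also need chaperones to fold globin and clear organelles.

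Libraries held 12.82 to 28.96 M counts on genes (M for mega). Globin genes with a symbol stayed in the library sizes and the tests, unless an alternative removed them. So did the most abundant gene without a symbol, which held 10.9 to 32.2% of the counts. All other genes together held 1.48 to 12.47 M counts (mean 4.11 M). The 67 members together held a mean of 0.0803% of the counts (0.0247 to 0.392%). Levels are given as CPM, counts per M of a library size scaled by TMM, a factor that aligns the bulk of the genes between libraries. The filter on low counts kept 10731 genes, and 55 of the 67 members were among them. One BKDL library, CON replicate 16, differed from the rest: globin genes with a symbol took 24.1% of its counts (mean of all libraries 56.3%), and it had the highest member share. Its TMM factor of 4.09 was the highest, with 3.72 in CON replicate 11 next and 0.308 in the lowest library. In whole blood, fewer cells of a type and less RNA per cell cannot be told apart.

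The 12 members that were not tested had few counts. HSP90AA1, the inducible cytosolic HSP90, and HSPB9 were listed at 0 in every library. RefSeq places HSP90AA1 on an unplaced sequence of Sscrofa11.1, and no statement on its expression can be made from its count. DNAJC5B had 1 count and DNAJC6 had 4 counts over all 39 libraries, HSPA12A had 8, DNAJC12 had 26, DNAJC22 had 62, DNAJC27 had 156, DNAJC28 had 208 and DNAJB5 had 215. HSPB8, a small heat shock protein that works with BAG3, had 154 counts, and 126 of them were in NEC_Mild replicate 6. HSPB3, a small heat shock protein known from muscle, had 34 counts, 27 of them in the same library. No row carried the symbol HSPA1A; the inducible HSP70 of the pig is represented by HSP70.2 (ENSSSCG00000029160).

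Positions in Sscrofa11.1 were found in RefSeq for 65 members, and 24 of these overlap another RefSeq gene, for which counting without strand could mix reads. HSP70.2, at 23925929 to 23927854 on chromosome 7, lies within the span of HSPA1L, at 23909960 to 23938678, so reads of the testis-type HSPA1L and of HSP70.2 may not be separable. HSPD1 and HSPE1, the mitochondrial chaperonin HSP60 and its lid HSP10, stand next to each other with 520 bases between them. No reference sequence was at hand for these genes, so none is printed.

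The first question was whether members differ with NEC of any grade. None of the 55 tested members passed in NEC against CON with edgeR's quasi-likelihood test at a Benjamini-Hochberg false discovery rate (FDR) under 0.05, nor with DESeq2 or limma, and 6 had an unadjusted p under 0.05. Calls without a named tool are those of edgeR. Among all 10731 genes the share called was 0.0% with edgeR, 0.335% with DESeq2 and 1.15% with limma, and with edgeR 14.4% had an unadjusted p under 0.05, against 10.9% of the members. The median log2 fold change of the members was 0.01, and that of all genes -0.01. The median size of the change was 0.117 in the members and 0.171 over all genes.

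The 3 members with the smallest p in that comparison are a chaperone of synaptic and secretory vesicles, a mitochondrial DNAJ and the inducible HSP70. DNAJC5, the cysteine string protein, averaged 22.9 ± 8.41 CPM in NEC piglets (SD, n = 20) and 33.1 ± 14.2 CPM in CON piglets (SD, n = 19), a log2 fold change of -0.49 ± 0.14 (SE; edgeR FDR 0.159). DNAJA3, the partner of mitochondrial HSP70, averaged 3.56 ± 0.761 CPM in NEC and 4.57 ± 1.06 CPM in CON (log2 fold change -0.36 ± 0.12; FDR 0.18). HSP70.2 averaged 58.6 ± 27.3 CPM in NEC and 91.7 ± 63.5 CPM in CON (log2 fold change -0.61 ± 0.24; FDR 0.236). The last value rests in part on 1 library: without CON replicate 16 the log2 fold change was -0.33 (FDR 0.523), and without all 4 BKDL libraries it was -0.21 (FDR 0.717).

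In mild NEC against CON no member passed with edgeR, DESeq2 or limma, 4 had an unadjusted p under 0.05 (7.84% of all genes), and the share of all genes called was 0.0%. The smallest p belonged to DNAJC5 (log2 fold change -0.48 ± 0.18, FDR 0.565), HSP70.2 (-0.66 ± 0.29, FDR 0.608) and DNAJC9, a chaperone of histones (0.46 ± 0.21, FDR 0.608). DNAJC9 averaged 2.80 ± 0.777 CPM in mild (SD, n = 11) and 2.31 ± 1.09 CPM in CON piglets (SD, n = 19). Without CON replicate 16 the log2 fold change of HSP70.2 was -0.31. All 3 ranges overlap between the groups.

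In severe NEC against CON 1 of the 55 members passed, DNAJB4, a heat-inducible cytosolic DNAJ that works with HSP70; the share of all genes called was 2.09%, and 1.82% of the members were called. DNAJB4 fell to a mean of 1.86 ± 0.544 CPM in severe piglets (SD, n = 9), against 3.80 ± 1.36 CPM in CON piglets (SD, n = 19). The 9 severe piglets had 2.01, 1.46, 1.74, 2.22, 1.94, 1.82, 2.67, 2.15 and 0.724 CPM. Mild piglets ranged around a median of 3.17 CPM, from 1.59 to 7.31 CPM, and CON piglets around a median of 3.66 CPM, from 1.04 to 6.03 CPM. Of the 19 CON piglets 17 lay above the highest severe piglet, and of the 11 mild piglets 8 did, so the groups overlap through a few animals. The CON piglets within the severe range were replicates 14 and 16, at 1.82 and 1.04 CPM.

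The log2 fold change of DNAJB4 in severe piglets was -1.04 ± 0.23 (SE; edgeR FDR 0.0167). It had the same sign in each batch, with -0.85 ± 0.46 in batch 3, -0.82 ± 0.35 in batch 2 and -1.44 ± 0.39 in batch 1, none of which passed alone (FDR 0.304, 0.33 and 0.119). No member passed within batch 2 or batch 1, where 0.00932% and 0.149% of all genes were called and 9 and 8 members had an unadjusted p under 0.05 (11.5% and 12.9% of all genes); DESeq2 and limma were not run within batches. Without CON replicate 16 it was -1.10 (FDR 0.0138). The call was lost without batch 2, where the value was -1.21 (FDR 0.105), and without NEC_Severe replicate 2, where it was -0.96 (FDR 0.0617); over the 24 alternatives the FDR ranged from 0.000443 to 0.105. Against mild piglets the difference was -1.10 ± 0.27 (FDR 0.0771), -1.08 ± 0.46 within batch 3 and -1.21 ± 0.42 within batch 1. Mild piglets differed from CON by 0.06 ± 0.21 (FDR 0.948).

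Markers of blood cell types moved in the same comparison. Of the tested markers, 5 of 10 B cell genes and 2 of 12 T cell genes fell in severe piglets, while 5 of 8 monocyte genes and 1 of 8 neutrophil genes rose; none of 16 erythroid and none of 8 platelet genes passed. The summed level of the B cell markers was 22.5 to 71.9 CPM in severe, 49.5 to 209.9 CPM in mild and 40.8 to 110.8 CPM in CON piglets. The summed level of the T cell markers was 78.6 to 282.5 CPM in severe, 101.9 to 352.8 CPM in mild and 172.5 to 368.5 CPM in CON piglets, and that of the monocyte markers 230.1 to 552.5, 28.8 to 344.7 and 106 to 519.9 CPM in the same order. That of the platelet markers was 508.2 to 1104 CPM in severe, 155.4 to 1477 CPM in mild and 681.2 to 2036 CPM in CON piglets. No marker was at 0 in all libraries. The part of these shifts in the DNAJB4 result was not tested.

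**Figure D1:**
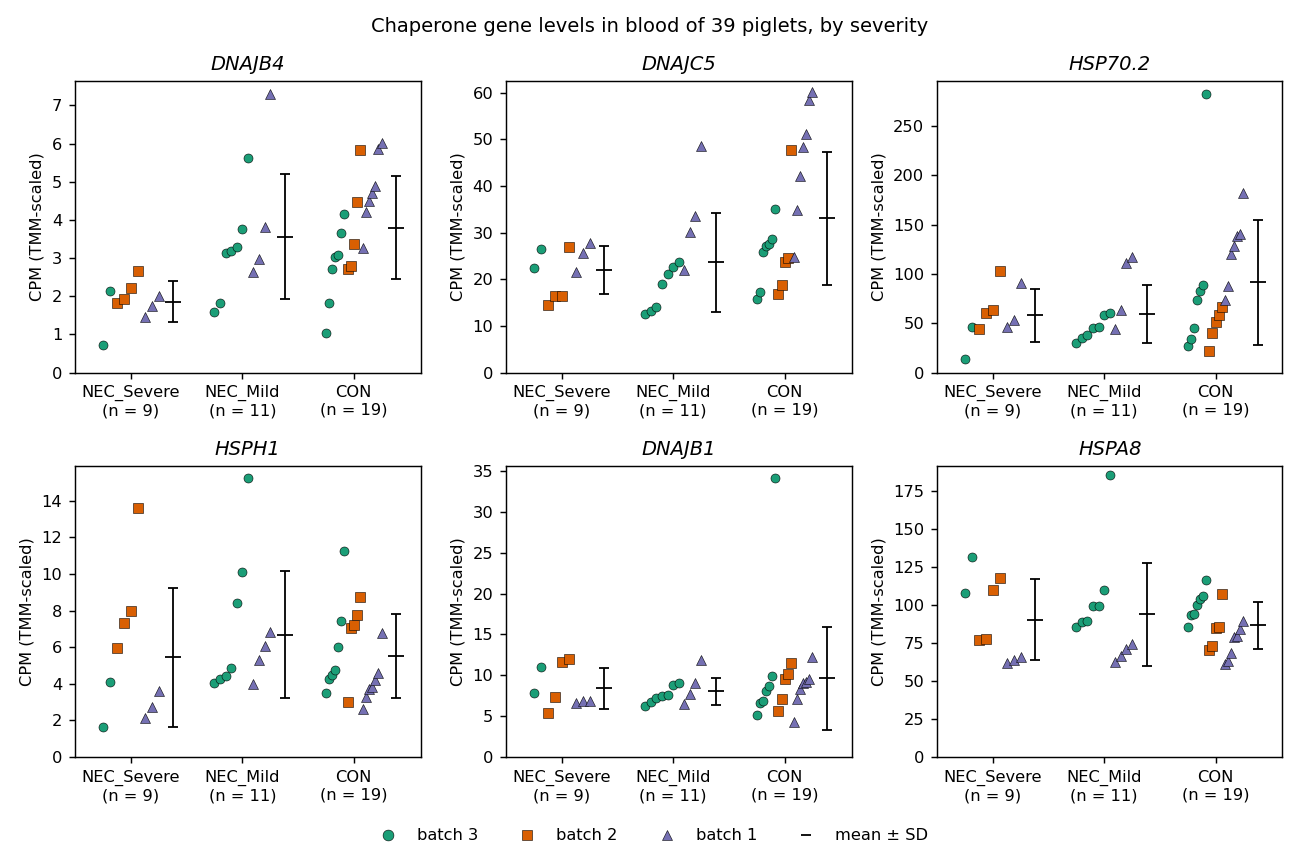
CPM of 6 members in each of the 39 piglets (vertical axes, linear, from 0), by severity on the horizontal axis and with batch as symbol; the bar beside each group is the mean ± SD. DNAJB4 lay between 0.724 and 2.67 CPM in severe piglets, below 17 of the 19 CON piglets, and CON replicate 16 stood alone at 282.3 CPM of HSP70.2 and 34.1 CPM of DNAJB1.

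With edgeR the other 54 tested members did not pass in severe against CON, and 7 of the 55 had an unadjusted p under 0.05 (12.7%, against 18.6% of all genes). DESeq2 called DNAJB4 alone, the fit with a surrogate variable added DNAJC5, and limma added DNAJC2, DNAJC5, DNAJC13, DNAJC17, DNAJC18, DNAJC25 and HSPA14, where limma called 15.9% of all genes. By family, 5 of 8 HSP70 genes, 2 of 3 HSP110 genes, 1 of 2 HSP90 genes, 5 of 9 DNAJB genes and 5 of 19 DNAJC genes had a log2 fold change above 0. The median log2 fold change was -0.0401 over the members and -0.045 over all genes. In the tested sets by compartment, 0 of 8 endoplasmic reticulum members passed (median log2 fold change 0.12), 0 of 7 mitochondrial members (-0.29) and 0 of 8 classic targets of heat shock factor (-0.11). With edgeR none of these 3 sets had a called member in NEC against CON, in mild against CON or in severe against mild either; limma called HSPH1, a heat shock factor target, in severe against mild.

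For the constitutive and inducible chaperones of the cytosol the ranges of the 3 groups overlapped. HSPA8, the constitutive HSP70, averaged 90.3 ± 26.4 CPM in severe (SD, n = 9), 93.8 ± 33.8 CPM in mild (SD, n = 11) and 86.5 ± 15.5 CPM in CON piglets (SD, n = 19). HSP90AB1, the constitutive HSP90, averaged 67.7 ± 24.3, 88.7 ± 29.6 and 72.2 ± 22.9 CPM in severe, mild and CON piglets. HSP70.2 had its lowest, median and highest values at 14.1, 53.3 and 103.5 CPM in severe, at 30.1, 46.1 and 117.1 CPM in mild and at 21.8, 73.4 and 282.3 CPM in CON piglets. DNAJB1, a DNAJ that HSF1 induces, averaged 8.39 ± 2.46 CPM in severe, 8.03 ± 1.62 CPM in mild and 9.64 ± 6.28 CPM in CON piglets. DNAJA1, a farnesylated DNAJ of the cytosol, averaged 33.3 ± 7.82, 33.5 ± 10.5 and 32.9 ± 13.7 CPM in severe, mild and CON piglets.

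The ranges overlapped for the organelle chaperones and the regulators too. HSPA5, the HSP70 of the endoplasmic reticulum known as BiP, averaged 21.5 ± 7.67 CPM in severe, 20.4 ± 4.82 CPM in mild and 20.2 ± 4.42 CPM in CON piglets. HSPD1 averaged 10.4 ± 3.09, 10.3 ± 2.66 and 9.79 ± 1.92 CPM, and HSPE1 averaged 7.27 ± 1.87, 9.62 ± 2.96 and 9.25 ± 2.52 CPM, in severe, mild and CON piglets. HSPB1, the small heat shock protein HSP27, averaged 12.6 ± 5.38 CPM in severe, 10.8 ± 5.73 CPM in mild and 12.97 ± 8.49 CPM in CON piglets. HSF1, the main heat shock transcription factor, averaged 1.30 ± 0.393, 1.47 ± 0.672 and 1.30 ± 0.555 CPM, and BAG3, a co-chaperone of selective autophagy that HSF1 induces, averaged 2.48 ± 0.788, 2.19 ± 1.04 and 2.43 ± 1.64 CPM. Over 17 tested members listed for their roles, log2 fold changes of severe against CON ran from -0.33 (HSPE1) to 0.66 (HSPA1L), the smallest FDR was 0.297, and 9 of the 17 changed sign under at least 1 alternative.

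**Figure D2:**
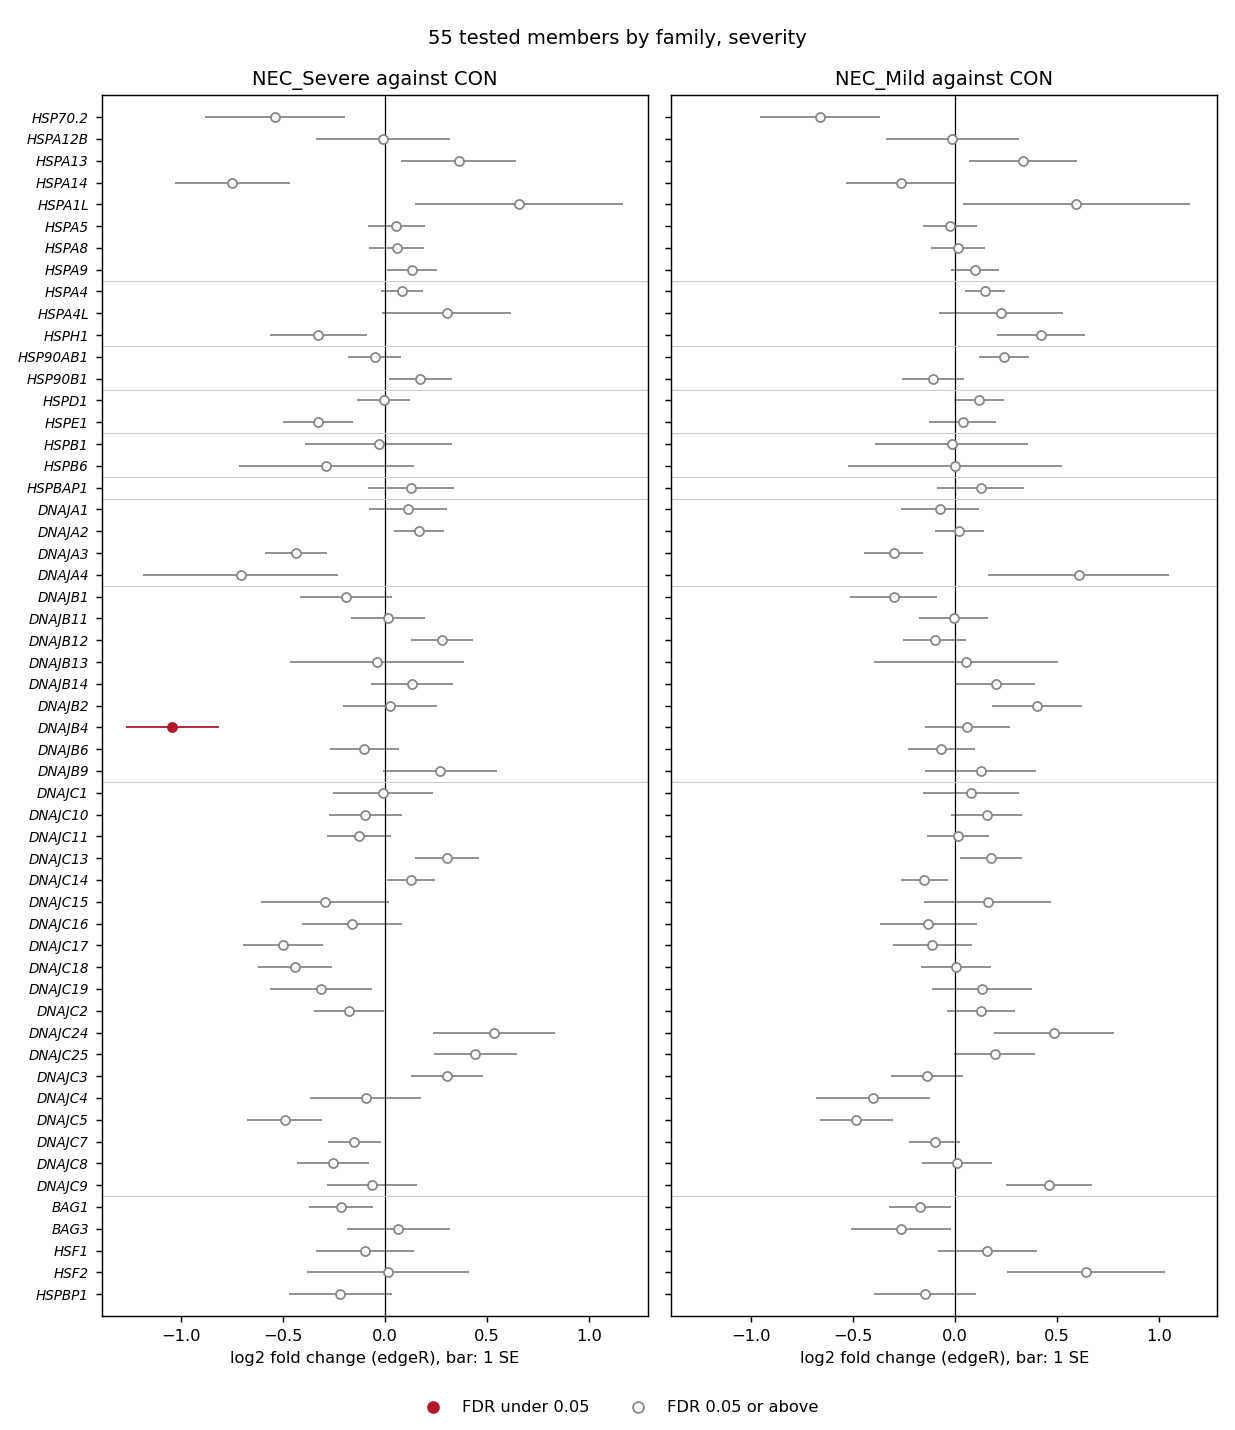
Log2 fold changes (horizontal axes) of the 55 tested members, grouped by family from HSP70 at the top to the regulators at the bottom, for severe against CON and for mild against CON; points are edgeR estimates and bars are 1 SE. The only filled point, with an FDR under 0.05, is DNAJB4 at -1.04 in severe piglets; it stood at 0.06 in mild piglets.

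Severe against mild NEC called none of the members with edgeR, where 6 had an unadjusted p under 0.05 (12.6% of all genes) and 0.112% of all genes were called; DESeq2 called 1 (DNAJB4) and limma called 3 (DNAJB4, HSPH1 and HSP90AB1). After DNAJB4 the smallest p belonged to HSPH1, the inducible HSP110, with a log2 fold change of -0.75 ± 0.28 (edgeR FDR 0.283), and to DNAJA4, a cytosolic DNAJ (-1.31 ± 0.57, FDR 0.342). DNAJA4 was close to the counting limit, with 0.312 ± 0.196 CPM in severe (SD, n = 9) and 0.547 ± 0.436 CPM in mild piglets (SD, n = 11).

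HSPH1 is given batch by batch, since batch 2 held no mild piglet. In batch 3 the severe piglets had 4.09 and 1.66 CPM, against 15.2, 10.1, 4.03, 4.43, 4.25, 8.42 and 4.88 CPM in mild piglets. In batch 1 the severe piglets had 3.59, 2.73 and 2.13 CPM, against 3.97, 6.06, 6.82 and 5.29 CPM in mild piglets. All 3 severe piglets of batch 1 lay below its 4 mild piglets, and 1 of the 2 severe piglets of batch 3 lay below its 7 mild ones. The 4 severe piglets of batch 2, which has no mild piglet, had 7.98, 5.98, 13.6 and 7.35 CPM. The log2 fold change of severe against mild was -1.30 ± 0.46 within batch 3 (FDR 0.124) and -1.07 ± 0.41 within batch 1 (FDR 0.264). It was -1.13 without batch 2 (FDR 0.119) and -0.29 without the batch and sex terms (FDR 0.819).

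The next comparison asked whether the severe effect differs between batches. No member passed this test with edgeR, 9 had an unadjusted p under 0.05 (16.1% of all genes), and 0.103% of all genes were called; DESeq2 and limma each called 1 member, HSPB6. HSPB6, the small heat shock protein HSP20, had log2 fold changes of severe against CON of 1.70 ± 0.67 in batch 3, -1.62 ± 0.59 in batch 2 and -0.74 ± 0.68 in batch 1 (edgeR FDR of the difference 0.134), at levels of 1.31, 0.351 and 0.305 CPM on average in the severe piglets of the 3 batches and 0.433, 1.12 and 0.495 CPM in their CON piglets. The CON mean of HSPB6 in batch 2 rests in part on CON replicate 10, at 2.72 CPM the highest of all piglets. The other CON piglets of batch 2 had 0.461 to 0.976 CPM, and no fit left out this library alone. DNAJC25, a DNAJ that spans the membrane of the endoplasmic reticulum, had log2 fold changes of -0.84 ± 0.39 in batch 3, 0.68 ± 0.28 in batch 2 and 0.85 ± 0.29 in batch 1 (FDR 0.16). DNAJB11, a soluble co-factor of BiP, had -0.70 ± 0.33, 0.63 ± 0.25 and -0.25 ± 0.27 in the same order (FDR 0.173). HSP70.2 had -1.61 ± 0.61, 0.50 ± 0.45 and -1.01 ± 0.50 (FDR 0.216). Its batch 3 value was -0.94 ± 0.49 without CON replicate 16 and -0.59 ± 0.55 without the 4 BKDL libraries, and that of HSPB6 was 1.09 ± 0.74 without the BKDL libraries.

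Within batch 3 alone 1 member passed in severe against CON, where 2.52% of all genes were called: DNAJB12, a membrane-anchored DNAJ of the endoplasmic reticulum, rose there by 0.98 ± 0.26 on the log2 scale (edgeR FDR 0.0355). Without CON replicate 16 the value was 1.02 ± 0.26 (FDR 0.0286), and without the 4 BKDL libraries it was 1.04 ± 0.32 and no longer passed (FDR 0.151). The 2 severe piglets of batch 3 had 9.20 and 10.2 CPM, against 3.77 to 6.49 CPM in its 7 mild and 3.27 to 6.02 CPM in its 7 CON piglets. Both severe piglets lay above the other 37 piglets for this gene. NEC_Severe replicate 9, at 10.2 CPM here, had the fewest genes detected of all libraries (10674). It also ranked 39 of 39 for DNAJB4, HSPH1 and HSP70.2. Without it 6.66% of all genes were called in severe against CON over all batches, and DNAJB4 was at -0.95 (edgeR FDR 0.0122). For DNAJB12 the log2 fold change in batch 2 and batch 1 was 0.08 ± 0.22 and -0.11 ± 0.24, and its difference between batches did not pass (FDR 0.196).

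Batch was the factor along which more members differed. In batch 3 against batch 1, with severity and sex in the fit, 15 of the 55 members passed (27.3%), where 19.0% of all genes were called; 12 were higher and 3 lower, against 11.3% and 7.73% of all genes. In batch 2 against batch 1, 8 members passed (14.5%), where 10.3% of all genes were called, 6 higher and 2 lower, against 5.68% and 4.58% of all genes. The 2 comparisons share the piglets of batch 1. Median log2 fold changes of the members were 0.10 in batch 3 and 0.22 in batch 2, against 0.00 and 0.08 over all genes; the median size of a change was 0.298 against 0.297 in batch 3, and 0.372 against 0.308 in batch 2. The labels do not say what a batch was, so litter, year, handling and sequencing run cannot be told apart. Batch 1 shared no library series with batch 2 or batch 3, so batch and series cannot be told apart here either.

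Both tested HSP90 genes rose in both batches. HSP90B1, the HSP90 of the endoplasmic reticulum known as GRP94, had its lowest, median and highest values at 10.5, 16.6 and 26.8 CPM in batch 3, at 8.98, 10.6 and 22.9 CPM in batch 2 and at 5.30, 7.30 and 9.40 CPM in batch 1. All 16 piglets of batch 3 and 8 of the 9 of batch 2 lay above the highest piglet of batch 1. Its log2 fold change was 1.21 ± 0.14 in batch 3 (edgeR FDR 1.14e-07) and 0.93 ± 0.17 in batch 2 (FDR 0.000387). HSP90AB1 had 72.5, 100.5 and 151.6 CPM in batch 3, 58.2, 71.1 and 83.0 CPM in batch 2 and 34.8, 50.7 and 76.4 CPM in batch 1, again lowest, median and highest. In batch 3, 15 of 16 piglets lay above all of batch 1, and in batch 2 only 1 of 9 did. The log2 fold changes were 0.91 ± 0.12 (FDR 8.07e-07) and 0.50 ± 0.14 (FDR 0.0184).

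Among HSP70 genes 5 of 8 passed in batch 3 and 2 in batch 2, where 19.0% and 10.3% of all genes were called. HSPA8 averaged 105.9 ± 24.3 CPM in batch 3 (SD, n = 16) and 70.8 ± 9.17 CPM in batch 1 (SD, n = 14), a log2 fold change of 0.58 ± 0.12 (FDR 0.000695), with 13 of 16 piglets above all of batch 1. HSPA9, the mitochondrial HSP70 mortalin, averaged 15.7 ± 3.38 CPM in batch 3 and 10.4 ± 1.42 CPM in batch 1 (0.58 ± 0.11, FDR 0.000209). HSPA5 averaged 22.9 ± 4.80 CPM in batch 3 and 16.5 ± 2.45 CPM in batch 1 (0.49 ± 0.12, FDR 0.00419). HSPA12B, a distant HSP70 relative of the vessel wall, was lower: it averaged 6.25 ± 3.43 CPM in batch 3, 4.84 ± 3.13 CPM in batch 2 and 14.6 ± 9.04 CPM in batch 1, with log2 fold changes of -1.20 ± 0.30 and -1.93 ± 0.38 for batches 3 and 2 (FDR 0.00391 and 0.000968).

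HSPA1L, whose span holds HSP70.2, was called higher in both batches from low counts. It averaged 0.755 ± 0.506 CPM in batch 3, 1.03 ± 0.780 CPM in batch 2 and 0.123 ± 0.185 CPM in batch 1, and the log2 fold changes were 2.52 ± 0.56 and 3.01 ± 0.62 for batches 3 and 2 (FDR 0.00134 and 0.00138). With edgeR HSP70.2 itself did not pass in either batch and had fold changes of the other sign, -0.67 ± 0.28 in batch 3 (FDR 0.0824) and -0.74 ± 0.38 in batch 2 (FDR 0.212). It averaged 63.0 ± 61.9 CPM in batch 3, 56.6 ± 22.5 CPM in batch 2 and 99.9 ± 41.1 CPM in batch 1. Without CON replicate 16 and without the 4 BKDL libraries HSP70.2 was called lower in batch 3 against batch 1. DESeq2 and limma called it in batch 3 with all libraries, and limma also in batch 2.

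**Figure D3:**
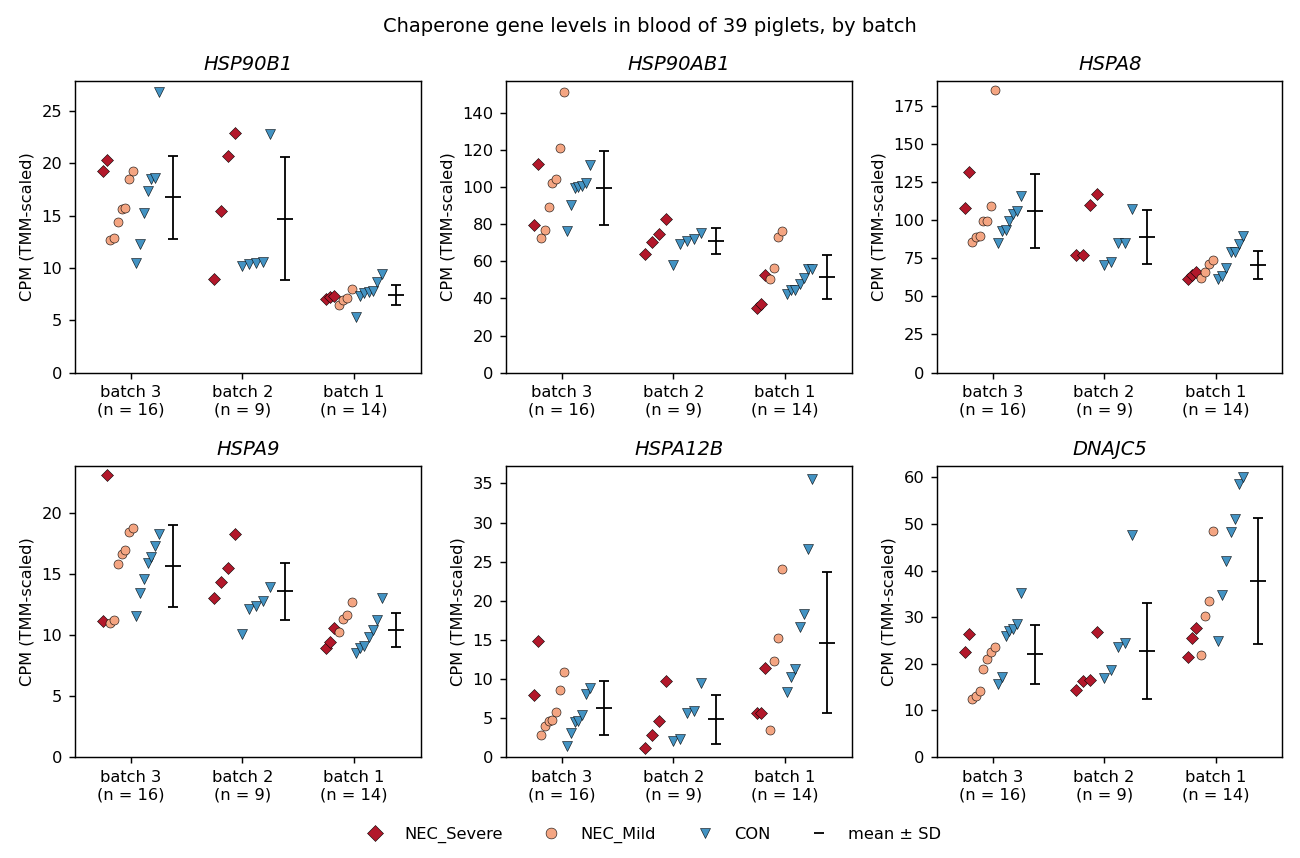
CPM of 6 members in each piglet (vertical axes, linear, from 0), by batch on the horizontal axis and with severity as symbol; the bar beside each batch is the mean ± SD. HSP90B1 was above 10 CPM in all 16 piglets of batch 3 and at most 9.40 CPM in the 14 of batch 1, and HSPA12B and DNAJC5 had their highest values in batch 1.

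The remaining called members by role were as follows. HSPH1 rose in batch 2, with 7.63 ± 2.78 CPM there (SD, n = 9) and 4.26 ± 1.49 CPM in batch 1 (SD, n = 14), a log2 fold change of 1.20 ± 0.26 (edgeR FDR 0.00176); in batch 3 it averaged 6.18 ± 3.50 CPM and did not pass (FDR 0.132). HSPD1 rose in batch 2, with 11.7 ± 2.27 CPM there and 8.58 ± 1.32 CPM in batch 1 (0.52 ± 0.14, FDR 0.0158), while its neighbour HSPE1 passed in neither batch with edgeR and in both with limma. DNAJA2, a constitutive cytosolic DNAJ, averaged 6.16 ± 1.20 CPM in batch 3, 6.15 ± 1.20 CPM in batch 2 and 3.999 ± 0.569 CPM in batch 1, and 14 of 16 and 8 of 9 piglets lay above all of batch 1. Its log2 fold changes were 0.63 ± 0.11 (FDR 9.98e-05) and 0.57 ± 0.14 (FDR 0.00526).

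DNAJC5 fell in both batches, to 22.0 ± 6.39 CPM in batch 3 and 22.8 ± 10.3 CPM in batch 2, against 37.8 ± 13.5 CPM in batch 1 (log2 fold changes -0.73 ± 0.16 and -0.77 ± 0.21; FDR 0.00145 and 0.013). DNAJC25 fell in batch 3, to 1.84 ± 0.712 CPM, against 2.76 ± 0.908 CPM in batch 1 (-0.54 ± 0.19, FDR 0.0384). The other DNAJ genes called in batch 3 were higher: DNAJC3, an inhibitor of the kinase PERK in the endoplasmic reticulum (0.68 ± 0.17), DNAJB12 (0.54 ± 0.14) and DNAJB2, a DNAJ with ubiquitin-binding motifs (0.62 ± 0.21). Of the regulators, BAG1, a nucleotide exchange factor of HSP70, averaged 13.9 ± 3.13 CPM in batch 3 and 9.70 ± 2.55 CPM in batch 1 (0.54 ± 0.14, FDR 0.00608). BAG3 averaged 2.86 ± 1.63 CPM in batch 3 and 1.72 ± 0.853 CPM in batch 1 (0.85 ± 0.24, FDR 0.00885). With edgeR neither HSF1, HSF2 nor HSPBP1 passed in a batch comparison; limma called HSF1 in batch 3.

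**Figure D4:**
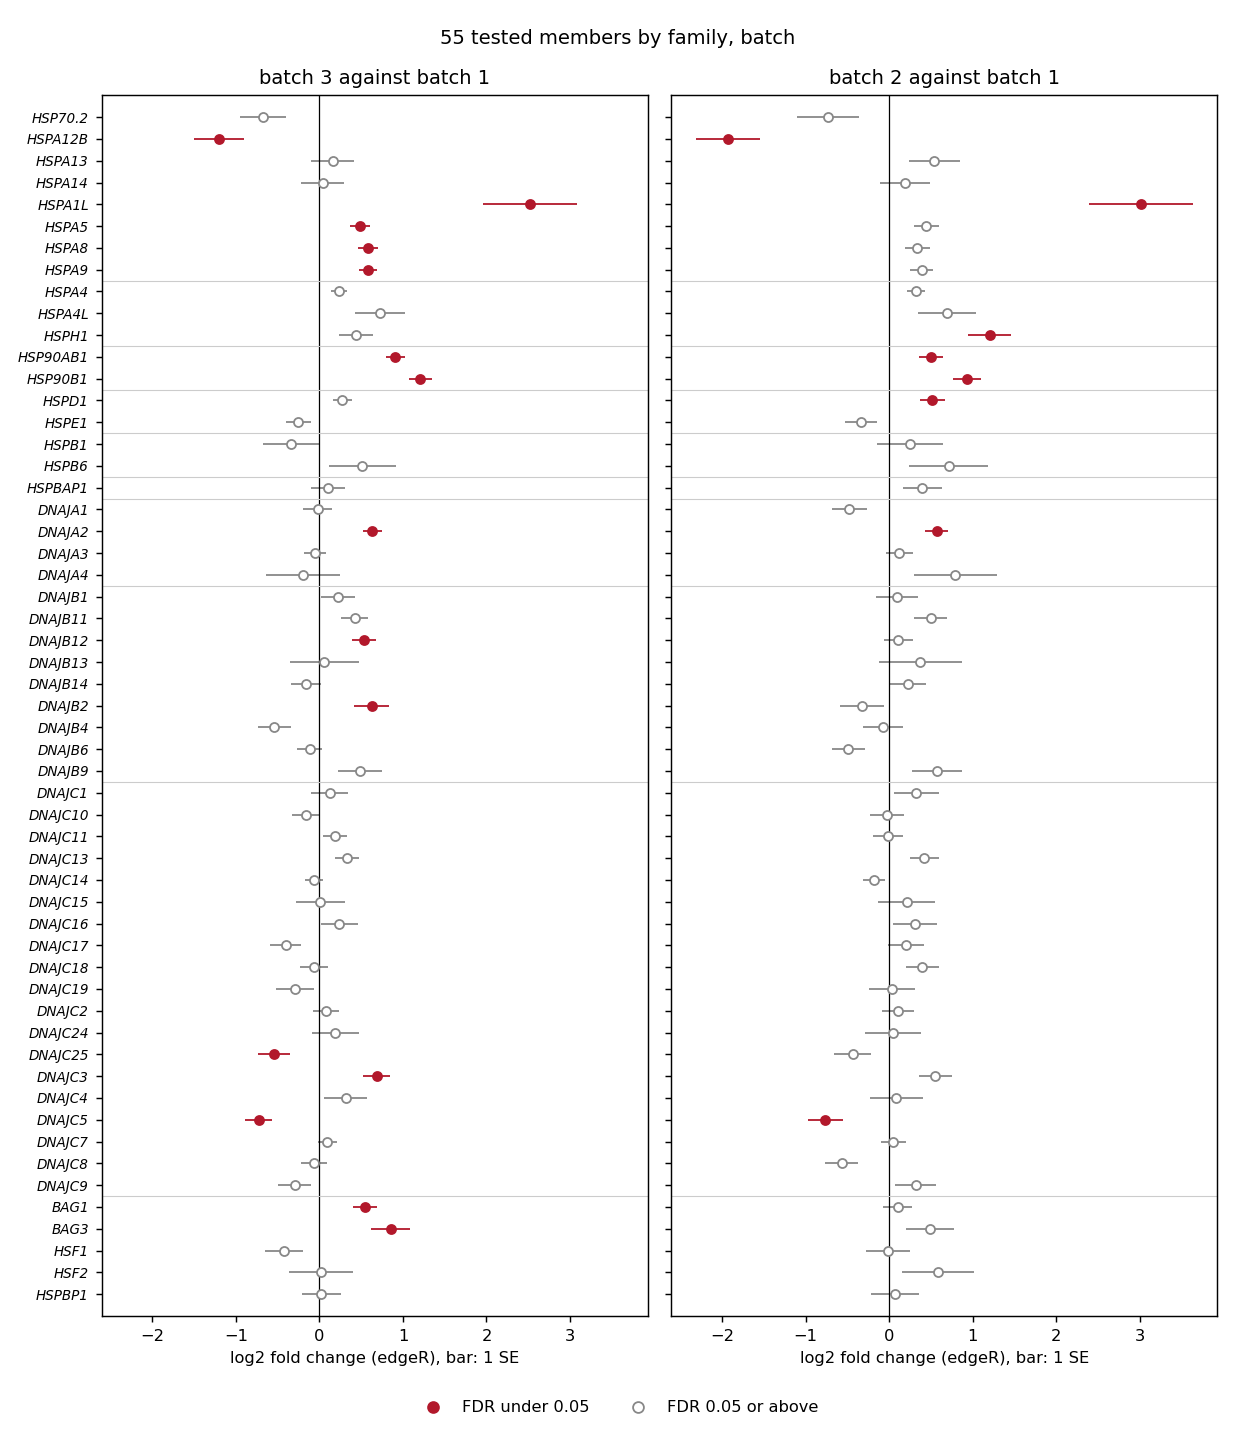
Log2 fold changes (horizontal axes) of the 55 tested members by family for batch 3 against batch 1 and for batch 2 against batch 1; points are edgeR estimates, bars are 1 SE and filled points have an FDR under 0.05. In batch 3 15 points are filled and in batch 2 8 are; both comparisons use the same 14 piglets of batch 1.

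By compartment, 3 of the 8 listed endoplasmic reticulum members rose in batch 3 (HSP90B1, HSPA5 and DNAJC3) and 1 in batch 2 (HSP90B1). Medians of the 8 were 0.45 and 0.52 on the log2 scale. The list left out DNAJB12 and DNAJC25, also of the endoplasmic reticulum, which were called higher and lower in batch 3. Of all genes 11.3% were called higher in batch 3 and 5.68% in batch 2. Of 7 mitochondrial members 1 rose in batch 3 (HSPA9) and 1 in batch 2 (HSPD1). Of the 8 tested classic targets of heat shock factor 1 rose in batch 3 (BAG3) and 2 rose in batch 2 (HSPH1 and HSPD1). Genes of related pathways outside the members were counted in the same way. Of 16 other genes for folding and the unfolded protein response of the endoplasmic reticulum 6 rose in batch 3 and 3 in batch 2. Among the 6 were XBP1, the transcription factor of that response (0.79 ± 0.15), and CALR, the chaperone calreticulin (0.57 ± 0.15). In batch 3, 15 of the 16 had a fold change above 0, with a median log2 fold change of 0.385, against 0.00444 over all genes. Of 11 genes of the TRiC chaperonin and prefoldin 5 rose in batch 3 and 1 in batch 2.

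Of 25 tested co-chaperones outside the DNAJ family 5 rose and 1 fell in batch 3, and 5 rose and 2 fell in batch 2. Of all genes 11.3% were called higher and 7.73% lower in batch 3, and 5.68% and 4.58% in batch 2. PTGES3, the HSP90 co-chaperone p23, rose by 0.84 ± 0.12 in batch 3 and 0.65 ± 0.14 in batch 2 on the log2 scale. UBB, a ubiquitin gene, changed by -0.96 ± 0.24 in batch 3 and -1.99 ± 0.33 in batch 2. None of 6 mitochondrial proteases and disaggregase genes passed. In the severity comparisons 1 gene of these 4 lists passed, FKBP5, an HSP90 co-chaperone under glucocorticoid control. It was at 0.94 ± 0.20 in severe against CON (edgeR FDR 0.0167), where 2.09% of all genes were called.

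Marker genes also differed between batches. In batch 3 against batch 1, 5 of 8 monocyte markers rose, and 4 of 10 B cell, 2 of 12 T cell and 1 of 8 platelet markers fell, while 1 of 16 erythroid markers rose and no neutrophil marker passed. In batch 2 against batch 1, 5 of 16 erythroid, 2 of 10 B cell, 1 of 8 neutrophil and 1 of 8 platelet markers fell and 2 of 8 monocyte markers rose. The median summed level of the monocyte markers was 320.4 CPM in batch 3 (60 to 552.5), 265.6 CPM in batch 2 (109.9 to 540.2) and 195.6 CPM in batch 1 (28.8 to 403.5). The median summed level of the B cell markers was 63.9 CPM in batch 3 (24.4 to 109.4), 52.6 CPM in batch 2 (22.5 to 82.5) and 89.8 CPM in batch 1 (34.2 to 209.9). The part of these shifts in the batch results was not tested.

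Within batch 3 the BKDL libraries, all from CON piglets, were compared with the FKDL libraries. The fold changes are those of a BKDL term in the fit of all 39 piglets with severity, sex and batch. They are therefore not ratios of the CON values listed here. No member passed with edgeR, where 0.671% of all genes were called, and 6 had an unadjusted p under 0.05 (9.71% of all genes); DESeq2 called 1 (HSPB1) and limma 2 (HSPB1 and HSPB6). HSPB1 had 8.08, 2.45, 2.48 and 2.44 CPM in the 4 BKDL libraries, against 7.84, 11.4 and 12.9 CPM in the 3 FKDL CON libraries. In the fit its log2 fold change was -2.04 ± 0.54 (edgeR FDR 0.0689). The 3 BKDL libraries other than CON replicate 16 lay at or below 2.48 CPM, lower than every FKDL CON library, and without CON replicate 16 edgeR called both HSPB1 (-2.68 ± 0.60, FDR 0.0183) and HSPB6 (-3.24 ± 0.82, FDR 0.04). HSP70.2 had 282.3, 88.3, 45.4 and 73.4 CPM in the BKDL libraries, against 27.4, 82.8 and 34.0 CPM in the FKDL CON libraries (1.38 ± 0.43, FDR 0.171), and without CON replicate 16 the log2 fold change was 0.56 ± 0.42 (FDR 0.533). Reads aligned to several places made up 31.2 to 51.9% in the BKDL libraries and 16.4 to 39.5% in the FKDL CON libraries of batch 3; their part was not tested.

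CON replicate 16 had the highest level of 5 of the 55 tested members, 3 of which are among the 8 tested classic heat shock factor targets. It had 282.3 CPM of HSP70.2 (next highest piglet 182.1, median of the others 59.2), 34.1 CPM of DNAJB1 (next highest 12.2, median of the others 7.77) and 8.21 CPM of BAG3 (next highest 4.27, median of the others 1.82). The other 2 were HSP90B1 at 26.8 CPM and DNAJA3 at 6.88 CPM. HSPH1 ranked 3 of 39 there at 11.3 CPM, and DNAJB4 and HSPA12B were second lowest, at 1.04 and 1.47 CPM. HSPB1, at 8.08 CPM, was not raised. HSPE1 ranked 2 there at 13.3 CPM, HSPD1 ranked 8 at 11.9 CPM and DNAJA1 ranked 24 at 28.4 CPM. For comparison, NEC_Severe replicate 9 had the highest level of 3 tested members and NEC_Mild replicate 6 of 2. How many of all tested genes were highest in CON replicate 16 was not counted, so its 5 members cannot be set against that share.

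Members also differed in how far piglets of the same severity and batch varied. The SD of log2 CPM within these 8 groups had a median of 0.487 over the 55 members and 0.561 over all tested genes, and 21 members exceeded the all-gene median. HSPA4, a constitutive HSP110, had the smallest SD of the members, 0.189, at percentile 0.41 of all tested genes. HSPA8, HSP90AB1, DNAJA2 and HSPA9 followed with 0.248, 0.248, 0.245 and 0.258. The 4 members with the largest SD were HSPA1L, DNAJA4, HSF2 and DNAJB13, with mean log2 CPM of -1.25, -1.27, -0.90 and -1.47, among the low levels of the tested members. HSPA4, HSPA8, HSP90AB1, DNAJA2 and HSPA9 were singled out after their values were seen.

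Pairs of members were compared across the 39 piglets after centring each gene within severity and batch. The permutations shuffled the centred values over all 39 piglets, without regard to the 8 groups. They do not allow for the 8 group means taken out, so the permutation p-values may be too small. HSPH1 and HSPD1 correlated with Pearson's r = 0.518 (permutation p = 0.00084, adjusted p = 0.0042 over 5 pairs) and Spearman's rho = 0.446 (permutation p = 0.0047, adjusted p = 0.0235). Among 10730 other genes HSPD1 ranked 206 in its r with HSPH1, and the median r of all genes was 0.0533. Without the 2 piglets farthest from the median of HSPH1, r was 0.382 (permutation p = 0.0206). Taken batch by batch, r was 0.677 (batch 3), 0.84 (batch 2) and -0.335 (batch 1), so the relation did not hold in batch 1.

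HSPH1 and HSPA8 gave r = 0.476 (permutation p = 0.00211, adjusted p = 0.00527) and rho = 0.378 (adjusted permutation p = 0.0461), with 0.716 in batch 3, 0.251 in batch 2 and -0.0157 in batch 1. Without the 2 farthest piglets r was 0.309 (permutation p = 0.0632), so the relation was weaker and its p no longer under 0.05. NEC_Mild replicate 5 had the highest level of HSPH1, HSPD1 and HSPA8 alike, at 15.2, 17.0 and 185.2 CPM. HSPH1 did not pass with DNAJB1 (r = 0.246, permutation p = 0.133; rho = 0.101, permutation p = 0.541) or with HSPE1 (r = -0.0912, permutation p = 0.582; rho = -0.168, permutation p = 0.305). HSPD1 and HSPE1, the neighbours, gave r = 0.299 (permutation p = 0.0642; rho = 0.221, permutation p = 0.176), and 0.192 without the 2 farthest piglets. The pair of HSPH1 and HSP90AA1 could not be computed, since HSP90AA1 was listed at 0 throughout. Both genes of a pair come from the same library, so its depth enters both, and piglets share batches.

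**Figure D5:**
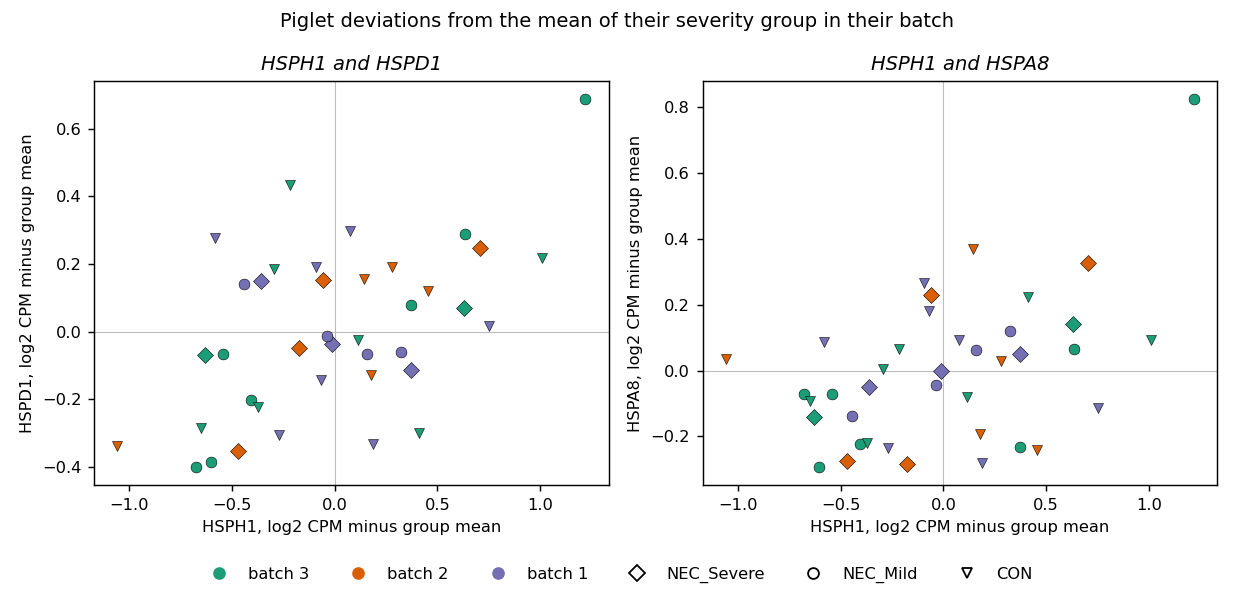
Log2 CPM of HSPD1 and of HSPA8 (vertical axes) against HSPH1 (horizontal axes), each as the deviation of a piglet from the mean of its severity group in its batch; colour marks the batch and symbol the severity, for 39 piglets. Points run upward to the right in batch 3 (r = 0.677 and 0.716), and NEC_Mild replicate 5 is the point at the top right of both panels.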

How the data were processed

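Whole-blood mRNA libraries of 39 piglets were analysed, 1 deposited file each, holding raw read counts per Ensembl pig gene. Per the labels' protocols, RNA was isolated with a MagMax blood kit, made into libraries with a VAHTS mRNA-seq kit and sequenced in pairs on an Illumina HiSeq. The tools named in the submitters' processing notes are DESeq2, HTSeq, TopHat and Trim Galore; Sscrofa11.1 is given as build. No source used here states versions, annotation release or strandedness. Reads aligned to several places (mean 30.5%) were not counted to a gene, so near-identical copies such as the HSP70 genes of chromosome 7 are uncertain. The 5 closing lines that name no gene stayed out, among them ambiguous reads (7.48%) and reads outside features (2.2%). Symbols came from a table of pig gene names (14857 of 25880 genes), positions from RefSeq for Sscrofa11.1, matched by symbol for 66 members.

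Counts were tested with edgeR 4.0.16 in R 4.3.3 (quasi-likelihood F test, robust, TMM, filterByExpr with a minimum count of 10, Benjamini-Hochberg over 10731 genes, FDR under 0.05), with batch and sex beside severity and all 39 piglets in each fit. An SE is the absolute log2 fold change over the root of its F statistic. On simulated counts for 10512 genes, severe against CON recovered 93% of genes changed by log2 2 and 56% of those changed by log2 1. The changes were put into severe piglets only, and severe against mild recovered 86% and 42%, NEC against CON 25% and 2%. The simulated counts held no batch or sex effects, so these shares are not the power of the real design. Left-out libraries within batch 3 were added after seeing the data. CPM are scaled by TMM. The labels do not say whether piglets shared a litter, so p-values measure the spread between these animals. Correlations used 100000 permutations, 2-sided, in Python 3.11.15. Alternatives were DESeq2 1.42.0, limma 3.58.1 (voom with sample weights), DESeq2's size factors, other filters, removal of globin genes, other terms, sva 3.50.0 (1 surrogate variable) and left-out libraries or batches. Removal of globin genes also took out the most abundant gene without a symbol. Every pair of libraries in a group differed by more than counting noise (lowest chi-square per degree of freedom 8.53). The label of sex is in doubt for 1 library.

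Members, lists and pairs were chosen with earlier results of these data known. Named were members fixed for their roles, those with an FDR under 0.05 or otherwise the 3 with the smallest p in each severity comparison, and the first 3 per direction in each batch comparison; others are named to account for all called or untested members. No count is adjusted over the members alone. The values of 1 gene of the co-chaperone list are not reported here.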

Additional observations from a re-analysis of the deposited data

Results flagged for a closer look

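HSPBP1, a nucleotide exchange factor of HSP70, had 3.83 CPM in NEC_Severe replicate 9 of batch 3, while the next highest of the 9 severe piglets had 2.15 CPM. This gap is 0.652 of the group's whole range and lies above the 95% critical value for 9 samples. The severe group was looked at for 28 members, and chance alone flags about 1 in 20 groups. HSPBP1 did not pass in any comparison with edgeR. NEC_Severe replicate 9 had the fewest genes detected of all libraries (10674).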

How the results depend on the processing

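The 24 alternatives for NEC against CON and for mild against CON left the number of called members at 0. For severe against CON the number was 1 in 20 of 24 alternatives, 8 with limma, 2 with surrogate variables, 0 without batch 2, and 0 to 1 when single severe piglets were left out; 0 came without NEC_Severe replicate 2. For severe against mild it was 1 with DESeq2, 3 with limma, and 0 to 1 when single piglets were left out (1 without NEC_Severe replicate 7). Limma called 19 members in batch 2 against batch 1 and 24 in batch 3 against batch 1; the 7 other alternatives of each gave 8 to 12 and 15 to 18. BKDL against FKDL had 1 called member with DESeq2, 2 with limma and 2 without CON replicate 16. The severe effect differed between batches for 1 member with DESeq2 and 1 with limma. The correlation of HSPH1 and DNAJB1 reversed to -0.0053 without the 4 BKDL libraries. DNAJC25 lost its batch 3 call with no low-count filter (-0.52). The log2 fold change of HSP70.2 in NEC against CON ran from -0.93 without batch 2 to -0.21 without the BKDL libraries, and was never called. The causes were not tested. No paired analysis was possible because the piglet numbers in the labels pair no animals across the groups. Counts under about 1 CPM, as for HSPA1L, DNAJA4, HSF2 and HSPB6, limit what these libraries can show.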

Other observations

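In NEC_Mild replicate 6 the sparse members HSPB8 and HSPB3 reached 3.11 and 0.667 CPM, against highest values of 0.484 and 0.121 CPM in the other 38 libraries, and DNAJB5 (1.43 CPM) and DNAJA4 (1.53 CPM) were also highest there. This library had 27.8 M counts on genes and the most genes detected, 14873.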
